A study of Homo sapiens with 12 samples.

Results

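EGFR, ERBB2, ERBB3, AREG, EREG, HBEGF, TGFA and ERRFI1 are described here across 3 human cancer cell lines in normoxia and hypoxia. These 8 genes were taken by symbol from the 25369 genes of the deposited expression tables and hold receptors of the EGFR family, ligands of EGFR and the receptor inhibitor ERRFI1. The expression study used poly(A)+ RNA-seq of RKO (colon carcinoma), A549 (lung adenocarcinoma) and H460 (lung large cell carcinoma) cells. Each line was kept for 24 h in normoxia or at 1% O2, with CO2 held alike and nitrogen as the rest of the hypoxic gas. Each of the 6 groups had 2 replicates, which the series describes as independent and biological. No group carried a transgene, an edited allele or a drug, and all 12 cultures were plated 1 day earlier in medium with fetal serum, which itself holds growth factors. RKO and A549 grew in DMEM and H460 in RPMI, so a difference between H460 and the other lines cannot be told apart from a difference in medium. Each condition stands on established lines, 1 per tumor type.

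EGFR, ERBB2 and ERBB3 are related receptor tyrosine kinases that signal as dimers. Ligands such as TGF-alpha, HB-EGF, epiregulin and amphiregulin are made as membrane-bound precursors, are released by metalloproteases and bind EGFR, while ERBB2 has no known ligand of its own and ERBB3, with little kinase activity, binds neuregulins. Active receptors feed the RAS-ERK and PI3K-AKT cascades, and the adaptor protein encoded by ERRFI1 (also called MIG6) binds the EGFR kinase domain and blocks it. EGFR signaling is a frequent driver of lung and colon carcinomas.

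Counted reads per library ranged from 27350424 to 41757584. Levels are given as CPM, a count scaled to the size of its library after TMM adjustment, and comparisons between genes as deposited RPKM, which also divides by gene length. Tests were edgeR quasi-likelihood tests with Benjamini-Hochberg adjustment over all genes tested, and a call of higher or lower needed both a fold change above 1.5 and an adjusted p below 0.1. The replicate spread was widest in A549, with a biological coefficient of variation of 18.9%, against 15.0% in RKO and 7.91% in H460. The hypoxia markers CA9, NDRG1, VEGFA, SLC2A1, PDK1 and ANKRD37 were all called higher in RKO and in H460, and 5 of the 6 in A549. In A549 the gene not called was ANKRD37, with a log2 fold change of 1.86 ± 0.48 (SE) and an adjusted p of 0.111. The A549 hypoxia libraries stood apart in these markers, all 6 of which were higher in replicate 2 (NDRG1 at 675 and 1761 CPM, VEGFA at 206 and 476 CPM and ANKRD37 at 2.73 and 7.85 CPM in replicates 1 and 2). Replicate 2 also had the higher EGFR and ERRFI1 and the lower EREG and AREG levels of the pair, and A549 results are given without each library where that changes a call. In A549 normoxia, replicate 2 likewise had the higher EGFR (147 and 206 CPM) and ERRFI1 (99.0 and 207) and the lower AREG (8.24 and 7.01). EREG was the higher there (220 and 251 CPM). The epithelial keratin genes KRT8 and KRT18 were read in all libraries, while the epithelial cadherin gene CDH1 had at most 18 reads in any RKO or H460 library. Of the 5 epithelial markers 1 was called lower in RKO (KRT18, -1.05) and 1 higher in H460 (KRT19, 1.22), KRT19 had at most 53 reads in any RKO or A549 library, and EPCAM had 13 and 17 reads in H460 normoxia and 4 and 3 in hypoxia. Of 5 colon markers only CDX2 had more than 2 reads in an RKO library, while in the lung line A549 CDH17 had 66 to 105 reads and LGALS4 23 to 61. Of 4 lung markers SFTPB and SFTPC had at most 4 reads in any A549 or H460 library. NAPSA had 133 to 179 reads in A549, 12 to 23 in H460 and at most 3 in RKO. NKX2-1 in H460 went from at most 2 reads in normoxia to 87 and 98 in hypoxia. Of 6 markers of fibroblasts, pericytes, endothelium and leukocytes, COL1A2, DCN, PECAM1 and PTPRC had at most 5 reads in any library and COL1A1 was called higher in RKO and A549. The summed level of the 6 ranged from 0.502 to 0.558 CPM in RKO normoxia, 2.17 to 2.24 in RKO hypoxia, 47.3 to 83.6 in A549 normoxia, 130 to 430 in A549 hypoxia, 23.0 to 24.1 in H460 normoxia and 22.4 to 35.1 in H460 hypoxia, nearly all of it COL1A1 or PDGFRB. The part of these markers in the results was not tested. RNA was measured in bulk, so fewer cells of a type and less RNA per cell cannot be told apart.

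ERRFI1 rose in RKO and H460 and had the highest RPKM of the 8 genes in 10 of the 12 libraries, with ERBB2 above it in RKO normoxia replicate 2 and EREG in A549 normoxia replicate 1. RefSeq promoter windows of GRCh38.p14, from 250 bases before to 50 after an annotated start, were found for 7 of the 8 genes, in 9 windows, and ERBB3 had no entry. The windows of 3 genes are shown because ERRFI1, TGFA and EREG had the largest rises in H460. Capitals mark the core of the hypoxia response element, the letters ACGTG or GCGTG read on either strand, to which hypoxia-inducible factors can bind. The windows are chr1:8026260-8026559 (minus strand) for ERRFI1, chr2:70553397-70553696 (minus strand) for TGFA and chr4:74364895-74365194 (plus strand) for EREG.
ERRFI1: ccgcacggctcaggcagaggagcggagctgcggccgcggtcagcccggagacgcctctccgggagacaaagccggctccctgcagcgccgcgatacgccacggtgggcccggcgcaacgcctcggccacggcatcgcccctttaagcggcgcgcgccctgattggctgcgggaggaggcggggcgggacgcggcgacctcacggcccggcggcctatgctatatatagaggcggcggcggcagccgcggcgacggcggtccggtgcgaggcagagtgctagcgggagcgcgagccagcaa
TGFA: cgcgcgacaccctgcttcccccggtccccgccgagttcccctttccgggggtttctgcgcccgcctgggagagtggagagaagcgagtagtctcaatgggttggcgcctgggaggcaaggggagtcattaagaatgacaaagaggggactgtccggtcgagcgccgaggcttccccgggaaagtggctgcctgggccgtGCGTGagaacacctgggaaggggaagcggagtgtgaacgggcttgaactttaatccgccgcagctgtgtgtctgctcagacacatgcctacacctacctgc
EREG: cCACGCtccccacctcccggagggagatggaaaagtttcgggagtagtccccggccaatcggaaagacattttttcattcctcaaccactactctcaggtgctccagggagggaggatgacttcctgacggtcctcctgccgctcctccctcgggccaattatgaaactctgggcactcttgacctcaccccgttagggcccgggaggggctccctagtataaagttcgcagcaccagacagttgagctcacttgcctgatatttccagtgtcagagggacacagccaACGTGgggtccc
The ERRFI1 window held no such core, the TGFA window held 1 (bases 200 to 204) and the EREG window held 2 (bases 2 to 6, read on the opposite strand, and bases 289 to 293). A further TGFA window, at chr2:70553777-70554076, held none, nor did the windows of EGFR and ERBB2, while AREG had 2 cores and HBEGF 1. The core is common, present in 48.4% of all 35116 promoter windows of 300 bases. A loose form of the AP-1 motif, TGANTCA with N as any base, was searched on both strands and was in 7.71% of the windows. Among these genes it was in 1 EGFR window (chr7:55109589-55109888, at 2 places, TGAGTCA and TGACTCA). The ERBB2 window held it at 1 place, as TGATTCA, which only the loose form takes in. The AP-1 letters do not overlap those of the hypoxia response core. No binding data were used here, and a motif match is a description of letters only.

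**Figure D1:**
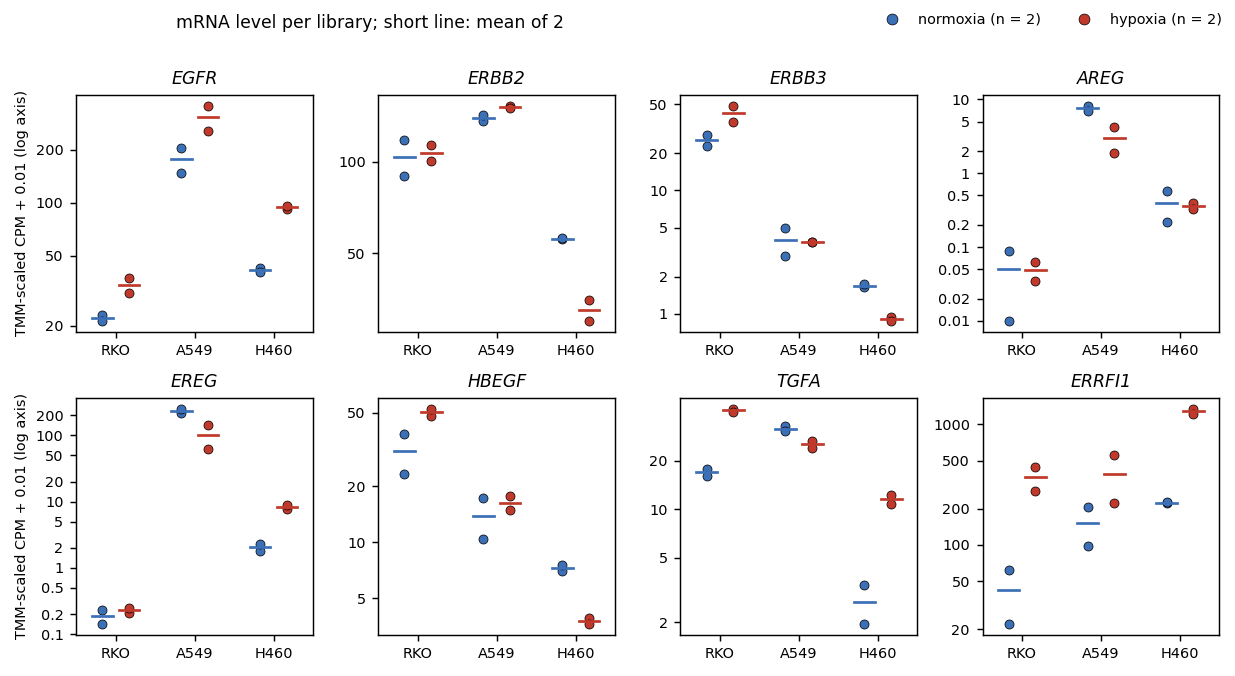
TMM-scaled CPM plus 0.01 of each gene on a log axis that differs between panels, with 1 point per library and a short line at the mean of the 2 replicates, in normoxia (blue) and hypoxia (red). ERRFI1 hypoxia points lie above the normoxia points of the same line in all 3 lines, while EREG and TGFA lie lower in hypoxia in A549 and higher in H460.

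Hypoxia was compared with normoxia within each line to ask which of these genes respond and whether the lines respond alike. In RKO, 6 of the 8 genes were tested, and 4 were called higher (ERBB3, HBEGF, TGFA and ERRFI1) and 0 lower. Over all genes tested in RKO, 18.8% were called higher and 15.1% lower. The median log2 fold change of the 6 tested genes was 0.65, against 0.01 over all genes. In A549, all 8 were tested and 0 were called by edgeR fitted to this line alone, where 2.22% of all genes were called higher and 0.456% lower. An edgeR fit of all 12 libraries called EGFR and ERRFI1 higher and AREG and EREG lower in A549. That fit called 957 of 15595 genes higher and 440 lower in A549. At an unadjusted p under 0.05, 4 of the 8 passed in A549 (EGFR, AREG, EREG and ERRFI1), against 16.6% of all genes, and 3 were called by DESeq2 (EGFR higher, AREG and EREG lower), which called 4.27% of all genes higher and 1.85% lower. In H460, 4 of 7 tested genes were called higher (EGFR, EREG, TGFA and ERRFI1) and 3 lower (ERBB2, ERBB3 and HBEGF), where 24.6% of all genes were called higher and 27.3% lower. The median log2 fold change of the members was 0.01 in A549 and 1.16 in H460, against -0.01 and -0.04 over all genes. The genes left out of a test for too few reads were AREG and EREG in RKO and AREG in H460.

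**Figure D2:**
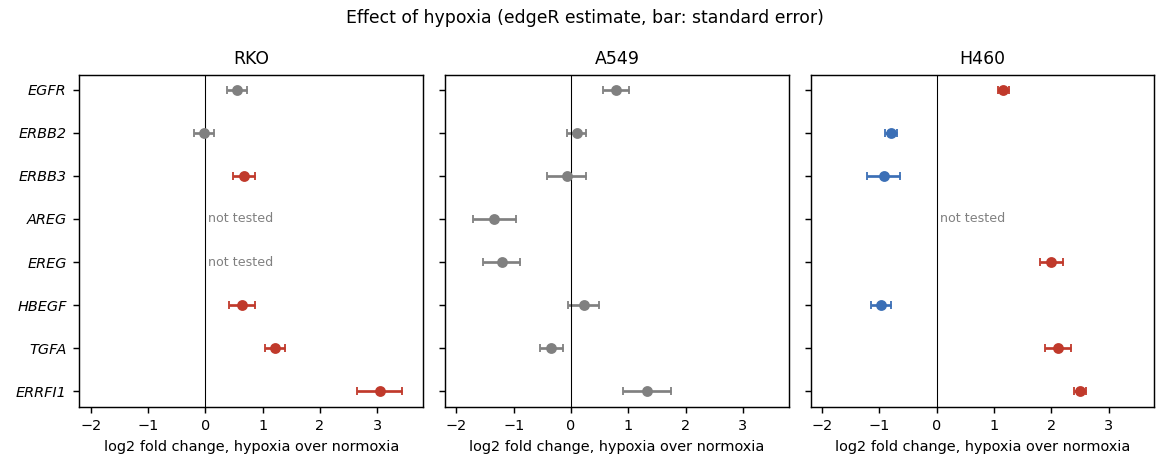
Log2 fold change of hypoxia over normoxia for each gene and line, with bars of 1 standard error, in red where called higher, blue where called lower and grey where not called. ERRFI1 lies farthest to the right in RKO (3.04) and H460 (2.50), and the A549 panel holds no called gene.

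EGFR, on chromosome 7 (55086725-55275031, plus strand, GRCh37), encodes the founding receptor of the family. In H460 its level was 42.6 and 40.5 CPM in normoxia and 91.8 and 96.3 CPM in hypoxia. The hypoxia libraries were all above the normoxia libraries, and EGFR rose 2.24-fold (log2 fold change 1.16 ± 0.09 SE, adjusted p = 3.19e-07). In RKO it was 23.1 and 21.3 CPM in normoxia against 37.1 and 30.6 CPM in hypoxia, also without overlap. The RKO log2 fold change was 0.55 ± 0.18 with an adjusted p of 0.0307, and the fold change of 1.46 missed the minimum of 1.5, so EGFR was not called. Small changes of the fit moved it past that minimum, since it was called without RKO normoxia replicate 1 (0.61), without RKO hypoxia replicate 2 (0.69) and in a joint fit of all lines (0.61). In A549, where EGFR was highest, it was 147 and 206 CPM in normoxia and 256 and 357 CPM in hypoxia. The A549 groups did not overlap, but with 0.78 ± 0.23 and an adjusted p of 0.154 the gene was not called. RLE factors, library sizes alone and limma gave no call in A549 either. EGFR was called there in the joint fit (0.79), without the filter for low counts (0.77) and with DESeq2 (0.78). It was called in A549 without hypoxia replicate 1 (0.98) or without normoxia replicate 2 (1.03), and over the 4 libraries left out in turn the change ran from 0.53 to 1.03. Mean EGFR levels ranked as A549 hypoxia, A549 normoxia, H460 hypoxia, H460 normoxia, RKO hypoxia and RKO normoxia, and no neighbours in this order overlapped.

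ERBB2, the partner receptor without a ligand, lies on chromosome 17 (37844337-37884915, plus strand). In H460 it was 55.8 and 56.0 CPM in normoxia and 30.0 and 35.2 CPM in hypoxia. The groups were apart, and ERBB2 fell with a log2 fold change of -0.79 ± 0.10 (adjusted p = 2.53e-05). In RKO the 89.5 and 118 CPM of normoxia enclosed the 100 and 113 CPM of hypoxia. The RKO estimate of -0.02 ± 0.17 (adjusted p = 0.945) turned positive, at 0.064, with library sizes alone as scaling and at 0.041 in the joint fit. In A549, ERBB2 was 136 and 143 CPM in normoxia and 153 and 150 CPM in hypoxia, with 0.10 ± 0.16 (adjusted p = 0.800). ERBB2 ranked highest in A549 hypoxia, then A549 normoxia, RKO hypoxia, RKO normoxia, H460 normoxia and H460 hypoxia, and only the RKO conditions overlapped.

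ERBB3, the receptor for neuregulins, lies on chromosome 12 (56473809-56497291, plus strand) and was mainly an RKO transcript. RKO held 27.9 and 23.0 CPM in normoxia and 48.6 and 36.0 CPM in hypoxia. ERBB3 was higher in each RKO hypoxia library than in either normoxia library, with a log2 fold change of 0.67 ± 0.19 (adjusted p = 0.0190). This call was lost without hypoxia replicate 1 (0.49) or without normoxia replicate 2 (0.54). A549 had 2.95 and 4.98 CPM in normoxia around 3.81 and 3.78 CPM in hypoxia, with -0.08 ± 0.34 (adjusted p = 0.931), an estimate that became 0.34 without A549 normoxia replicate 2. H460 had the fewest ERBB3 reads, 46 and 59 in normoxia and 22 and 25 in hypoxia, or 1.63 and 1.73 against 0.93 and 0.87 CPM. ERBB3 fell in H460 by this test, with a log2 fold change of -0.92 ± 0.29 (adjusted p = 0.0125). The H460 call was lost with DESeq2 (-0.89) and with limma on log2(RPKM + 1), where the change was -0.20. The order was RKO hypoxia, RKO normoxia, A549 normoxia, A549 hypoxia, H460 normoxia and H460 hypoxia, with overlap only between the A549 conditions.

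TGFA encodes TGF-alpha, a ligand that binds EGFR alone, and lies on chromosome 2 (70674412-70781147, minus strand). In H460 it was 3.40 and 1.93 CPM in normoxia and 12.3 and 10.7 CPM in hypoxia. In RKO it was 17.9 and 16.0 CPM in normoxia and 42.0 and 40.1 CPM in hypoxia. Neither line showed overlap, and TGFA rose 4.32-fold in H460 (log2 fold change 2.11 ± 0.23, adjusted p = 5.03e-06) and 2.32-fold in RKO (1.22 ± 0.17, adjusted p = 0.000519). In A549 the levels were 32.7 and 30.6 CPM in normoxia and 26.4 and 24.0 CPM in hypoxia. Both A549 hypoxia values were below the normoxia values, with -0.34 ± 0.19 and an adjusted p of 0.420. RKO hypoxia was highest, followed by A549 normoxia, A549 hypoxia, RKO normoxia, H460 hypoxia and H460 normoxia, and no neighbours overlapped, so that TGFA in RKO passed from below A549 in normoxia to above it in hypoxia.

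HBEGF encodes heparin-binding EGF-like growth factor, on chromosome 5 (139712428-139726188, minus strand). In H460 it was 6.99 and 7.50 CPM in normoxia and 3.88 and 3.62 CPM in hypoxia. The H460 replicates lay close together and HBEGF fell with a log2 fold change of -0.97 ± 0.17 (adjusted p = 0.000305). In RKO it was 38.5 and 23.4 CPM in normoxia and 47.8 and 52.5 CPM in hypoxia. HBEGF was called higher in RKO at 0.64 ± 0.22 (adjusted p = 0.0428), a call that rested on the lower normoxia library. Without RKO normoxia replicate 2 the change was 0.32 and not called, and it was not called without hypoxia replicate 2 (0.58) either. A549 values overlapped, at 10.4 and 17.3 CPM in normoxia and 17.7 and 14.9 CPM in hypoxia, with 0.22 ± 0.28 (adjusted p = 0.734), and the estimate became -0.10 without A549 normoxia replicate 1. From the top, the order was RKO hypoxia, RKO normoxia, A549 hypoxia, A549 normoxia, H460 normoxia and H460 hypoxia, with overlap only between the A549 conditions.

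EREG, which encodes epiregulin, lies on chromosome 4 (75230860-75254477, plus strand). With AREG set aside, it had the widest gap between lines in normoxia, with a log2 difference of -10.32 ± 0.45 (RKO minus A549, adjusted p = 5.52e-11). The size of this gap is uncertain, since RKO normoxia had only 5 and 9 EREG reads. It ran from -10.39 to -5.71 under other tools, scalings and filters. In A549 it was 220 and 251 CPM in normoxia and 142 and 63.1 CPM in hypoxia. Both hypoxia libraries were below both normoxia libraries but far from each other, and the log2 fold change of -1.21 ± 0.32 was not called (adjusted p = 0.123). EREG was called lower in A549 in the joint fit (-1.20), without the filter (-1.22) and with DESeq2 (-1.22). RLE factors, library sizes alone and limma gave no call. Without hypoxia replicate 1 the A549 change was called at -1.93, and without normoxia replicate 1 at -1.30, while without hypoxia replicate 2 it was -0.74 and not called. In H460, EREG was 1.81 and 2.32 CPM in normoxia and 7.76 and 8.97 CPM in hypoxia. The H460 groups were apart and EREG rose 3.99-fold (2.00 ± 0.20, adjusted p = 2.94e-06), to a level still below each A549 library. RKO had 5 and 9 EREG reads in normoxia and 8 and 9 in hypoxia, too few for the test. A549 normoxia was highest, then A549 hypoxia, H460 hypoxia, H460 normoxia, RKO hypoxia and RKO normoxia, with overlap only between the RKO conditions.

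AREG encodes amphiregulin and is the neighbour of EREG on chromosome 4. Its row spans 75310815-75490485 and so takes in a near-identical second copy at 75480629-75490481. Of the 1642 exon bases of the first copy, 1641 (99.9%) were the same in the second, and the authors removed alignments of low mapping quality, so AREG counts cannot be compared with those of other genes. Only A549 had a clear AREG signal, with 346 and 286 reads in normoxia and 174 and 65 in hypoxia (8.24 and 7.01 against 4.17 and 1.89 CPM). As for EREG, both hypoxia values were lower and unequal, with a log2 fold change of -1.34 ± 0.38 (adjusted p = 0.149, not called). AREG was called lower in A549 in the joint fit (-1.32), without the filter (-1.34) and with DESeq2 (-1.34). RLE factors, library sizes alone and limma gave no call. The A549 change was called at -2.04 without hypoxia replicate 1 and was -0.88, not called, without hypoxia replicate 2. H460 had 16 and 7 reads in normoxia and 9 and 9 in hypoxia, and RKO 3 and 0 in normoxia and 1 and 2 in hypoxia, so no change was detectable at this depth in those lines. In normoxia AREG was at least 98.4-fold higher in A549 than in RKO, with RKO set at a floor of 3 reads per library. A549 normoxia ranked above A549 hypoxia, H460 normoxia, H460 hypoxia and RKO, where the H460 conditions overlapped each other and so did the RKO conditions.

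ERRFI1, on chromosome 1 (8071779-8086393, minus strand), encodes the feedback inhibitor of EGFR. In H460 it was 222 and 226 CPM in normoxia and 1343 and 1220 CPM in hypoxia. The H460 groups lay far apart and ERRFI1 rose 5.66-fold (log2 fold change 2.50 ± 0.10, adjusted p = 2.67e-09), the largest change of the 8 genes in that line. In RKO it was 62.5 and 22.2 CPM in normoxia and 446 and 282 CPM in hypoxia. The normoxia libraries of RKO differed from each other more than those of H460, yet the rise of 8.23-fold (3.04 ± 0.40, adjusted p = 0.000385) stayed called when any library was left out, between 2.48 and 3.98. In A549 it was 99.0 and 207 CPM in normoxia and 222 and 553 CPM in hypoxia. The lower A549 hypoxia library was close to the higher normoxia library, and 1.32 ± 0.42 was not called (adjusted p = 0.183). The joint fit (1.34) and a fit without the filter (1.31) called it higher. DESeq2, RLE factors, library sizes alone and limma gave no call. ERRFI1 was called in A549 without hypoxia replicate 1 (1.83) or without normoxia replicate 2 (1.94), and was 0.53, not called, without hypoxia replicate 2. H460 hypoxia was highest, then A549 hypoxia, RKO hypoxia, H460 normoxia, A549 normoxia and RKO normoxia, and A549 hypoxia overlapped both RKO hypoxia and H460 normoxia.

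On the RPKM scale, which allows genes to be set side by side, the leading receptor changed in H460. The ratio of EGFR to ERBB2 RPKM in H460 was 0.638 and 0.605 in normoxia and 2.56 and 2.29 in hypoxia. EGFR was thus the less abundant receptor transcript in both normoxia libraries and the more abundant in both hypoxia libraries, while the summed RPKM of EGFR, ERBB2 and ERBB3 was 17.4 and 17.5 in normoxia and 15.4 and 17.6 in hypoxia. The sum depends on the scaling, since divided by the TMM factors it was 16.9 and 16.6 in normoxia and 19.6 and 21.2 in hypoxia. In RKO, ERBB2 led in all 4 libraries, with 67.0% and 75.5% of the receptor RPKM in normoxia and 57.5% and 66.3% in hypoxia. In A549 the ratio of EGFR to ERBB2 was 0.904 and 1.21 in normoxia and 1.40 and 1.99 in hypoxia. The A549 ratios did not overlap between conditions, and ERBB3 was under 2% of the receptor RPKM in A549 and H460 in all libraries.

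**Figure D3:**
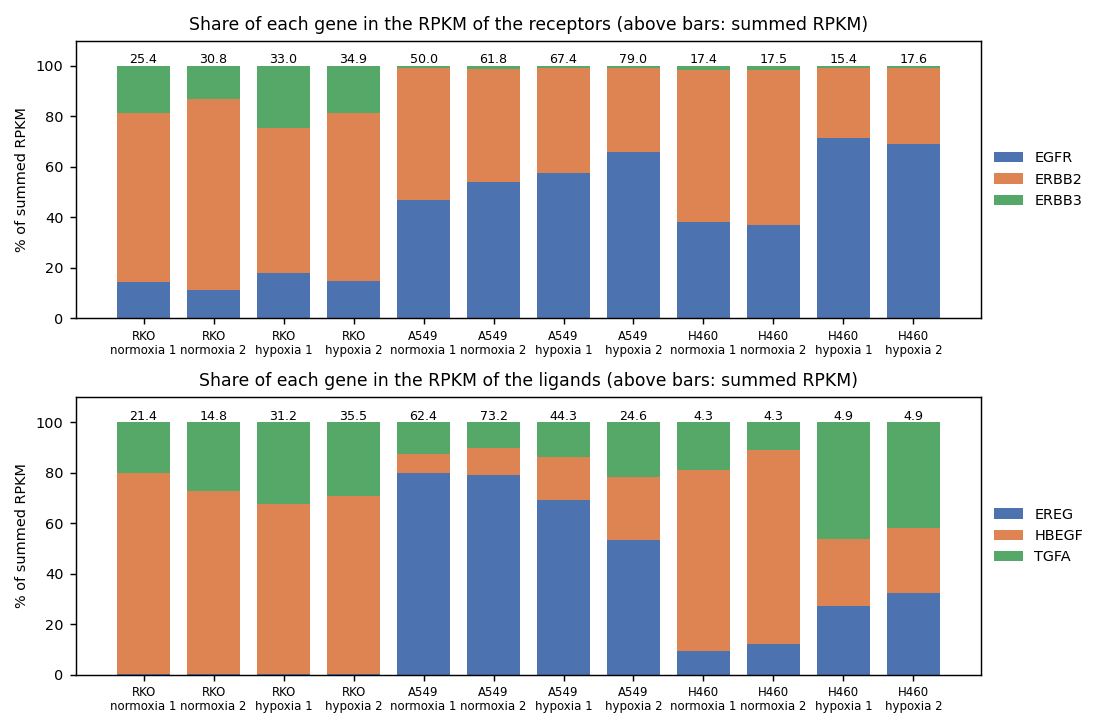
Share of each gene in the summed RPKM of the receptors (top) and of the ligands EREG, HBEGF and TGFA (bottom) in each library, in percent, with the summed RPKM above each bar. The EGFR share in H460 is 38.3% and 37.1% in normoxia and 71.4% and 69.1% in hypoxia, and the HBEGF share there falls from 71.5% and 77.0% to 26.6% and 25.7%.

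Among the ligand transcripts EREG, HBEGF and TGFA, the leading one differed by line, with AREG set aside for its second copy. In A549 normoxia EREG made up 79.8% and 79.0% of the summed RPKM of EREG, HBEGF and TGFA, and in hypoxia 69.2% and 53.4%. The A549 ligand sum was 62.4 and 73.2 RPKM in normoxia and 44.3 and 24.6 in hypoxia. In RKO, HBEGF led throughout, with 79.6% and 72.4% in normoxia and 67.4% and 70.4% in hypoxia. The RKO ligand sum was 21.4 and 14.8 RPKM in normoxia and 31.2 and 35.5 in hypoxia, so the sums moved in opposite directions in these lines. In H460 the share of HBEGF was 71.5% and 77.0% in normoxia and 26.6% and 25.7% in hypoxia. TGFA took 19.1% and 10.9% in normoxia and 46.2% and 41.8% in hypoxia, and became the leading ligand transcript of the 3 in both H460 hypoxia libraries. The H460 sum of these 3 was 4.27 and 4.35 RPKM in normoxia and 4.86 and 4.94 in hypoxia. Divided by the TMM factors, it was 4.14 and 4.13 against 6.18 and 5.96. This sum leaves out the EGFR ligand genes EPGN and EGF, each of which had a higher RPKM than the sum in every H460 library. EPGN was at 46.19 and 67.54 RPKM in H460 normoxia and 45.95 and 43.62 in hypoxia. EGF was at 7.22 and 6.78 RPKM in H460 normoxia and 5.21 and 5.72 in hypoxia. EPGN was thus the more abundant ligand transcript in H460 in both conditions. The ratio of ERRFI1 to EGFR RPKM was 11.0 and 11.7 in H460 normoxia and 30.7 and 26.6 in hypoxia, and 5.69 and 2.19 in RKO normoxia against 25.3 and 19.4 in hypoxia. In A549 the same ratio overlapped between conditions, at 1.41 and 2.11 in normoxia and 1.82 and 3.25 in hypoxia.

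The hypoxia effects of the lines were then compared with each other in a joint fit of all 12 libraries, where a difference was called at an adjusted p under 0.1. Between A549 and H460 the effect differed for 4 of the 8 genes, where it differed for 36% of all genes. For TGFA the A549 effect was lower than the H460 effect by a log2 difference of -2.45 ± 0.30 (adjusted p = 0.000127), and for EREG by -3.22 ± 0.42 (adjusted p = 0.000200). ERBB2 (0.89, adjusted p = 0.00689) and HBEGF (1.19, adjusted p = 0.0299) had the higher effect in A549, though HBEGF lost its call without H460 hypoxia replicate 2 (1.11). Between RKO and H460 the effect also differed for 4 genes, against 37.6% of all genes. ERBB2 (0.82), ERBB3 (1.64) and HBEGF (1.65) had a higher effect in RKO, with adjusted p from 0.00457 to 0.00983, and TGFA (-0.84, adjusted p = 0.0462) a lower effect in RKO than in H460. The TGFA difference between RKO and H460 lost its call without RKO normoxia replicate 1 (-0.75), RKO hypoxia replicate 2 (-0.79), H460 normoxia replicate 2 (-0.49) or H460 hypoxia replicate 1 (-0.76). Between RKO and A549 the effect differed for 1 gene, TGFA, by 1.60 ± 0.28 (adjusted p = 0.00465), against 14.6% of all genes. For ERRFI1 no pair of lines passed in this fit, with log2 differences of 1.76 ± 0.64 (RKO minus A549, adjusted p = 0.105), 0.59 ± 0.64 (RKO minus H460, 0.535) and -1.17 ± 0.64 (A549 minus H460, 0.190). The first of these passed with library sizes alone as scaling (1.91) and with limma on log2(RPKM + 1) (2.00) and log2(RPKM + 0.1) (2.08). The RKO minus A549 difference of ERRFI1 passed without RKO normoxia replicate 1 (2.70), RKO hypoxia replicate 2 (2.07), A549 normoxia replicate 1 (2.20) or A549 hypoxia replicate 2 (2.57). The ERRFI1 difference between A549 and H460 passed without A549 normoxia replicate 1 (-1.61) or A549 hypoxia replicate 2 (-1.98), and that between RKO and H460 without RKO normoxia replicate 1 (1.54). EGFR effects were -0.18 ± 0.26, -0.57 ± 0.26 and -0.39 ± 0.26 apart in the same order of pairs, and these passed in no pair in this fit. The EGFR difference between RKO and H460 passed with DESeq2 (-0.60), with RLE factors (-0.60) and without RKO hypoxia replicate 1 (-0.71), and that between A549 and H460 without A549 normoxia replicate 1 (-0.61) or A549 hypoxia replicate 2 (-0.65). With such standard errors these comparisons do not show that ERRFI1 or EGFR responded equally.

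In normoxia the lines differed in nearly all of these genes. Between RKO and A549, 7 of the 8 were called (60.2% of all genes), between RKO and H460 all 8 (61.9% of all genes) and between A549 and H460 7 (52.1% of all genes). EGFR was 7.97-fold lower in RKO than in A549 and 4.25-fold higher in A549 than in H460. ERBB3 was 15.1-fold higher in RKO than in H460 and 6.42-fold higher than in A549, and EREG 114-fold higher in A549 than in H460. TGFA was 11.9-fold higher in A549 than in H460 and 6.40-fold higher in RKO than in H460, while HBEGF was 4.26-fold higher in RKO than in H460. The exceptions were ERBB2 between RKO and A549 (log2 difference -0.43 ± 0.15, adjusted p = 0.0190, under the fold minimum) and ERRFI1 between A549 and H460 (-0.55 ± 0.45, adjusted p = 0.310). ERBB2 was called without RKO normoxia replicate 2 (-0.65) and ERRFI1 without A549 normoxia replicate 2 (-1.18), and without the latter library HBEGF was not called between A549 and H460 (0.53). ERRFI1 was lower in RKO than in A549 (-1.85) and in H460 (-2.41), with ranges of -2.80 to -1.23 and -3.35 to -1.85 when 1 library was left out. AREG was called lower in RKO than in H460 on 3 and 0 against 16 and 7 reads, too few for a fold.

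Of 7 other ligands of the family, 2 were tested in RKO, 5 in A549 and 5 in H460, and 0, 1 and 2 were called. All-gene call rates, upward then downward, were 18.8% and 15.1% for RKO. They were 2.22% and 0.456% for A549, and 24.6% and 27.3% for H460. NRG1, a neuregulin ligand of ERBB3, fell in A549 from 8684 and 9656 reads in normoxia to 4995 and 2949 in hypoxia. This was the only ligand called in A549, with a log2 fold change of -1.12 ± 0.21 (adjusted p = 0.0409), and its change in H460 was 0.12 ± 0.15 (adjusted p = 0.455). In H460, NRG2 fell (-1.75 ± 0.18, adjusted p = 3.02e-06) and NRG4 rose (1.34 ± 0.15, adjusted p = 9.16e-06). EPGN, which encodes the EGFR ligand epigen, had 3655 and 6335 reads in H460 normoxia and 4010 and 4381 in hypoxia, and at most 9 reads in any RKO or A549 library. Its H460 change was 0.01 ± 0.14 (adjusted p = 0.949). EGF, the founding ligand, was read mainly in H460, with -0.01 ± 0.10 (adjusted p = 0.963), and its A549 change was 0.05 ± 0.36 (adjusted p = 0.958). BTC was not called in RKO or A549 and had too few reads in H460. NRG3 had at most 11 reads in any library, and ERBB4, the remaining receptor, at most 1.

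**Figure D4:**
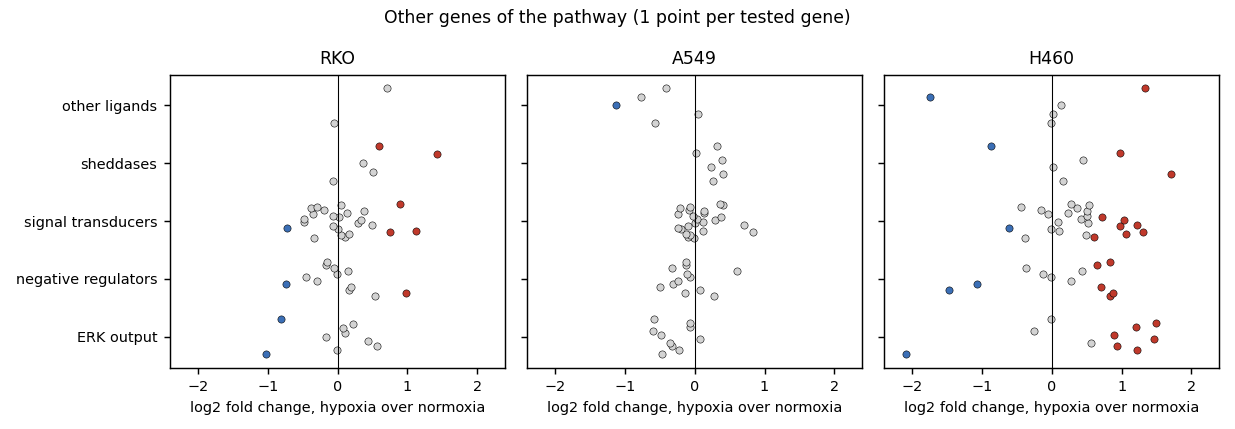
Log2 fold change of hypoxia over normoxia for the tested genes of each pathway list, 1 point per gene, with red for called higher, blue for called lower and grey for not called. Called points are most frequent in H460, at 6 higher and 1 lower of 10 ERK output genes, A549 has 1 called point, NRG1, and calls over all genes were also most frequent in H460 (24.6% higher and 27.3% lower).

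Genes that release the ligands or help that release were called higher in 2 of 5 cases in RKO and 2 of 6 in H460, lower in 0 and 1, and in neither direction for any of 6 in A549. Of all genes tested, 18.8% were called higher in RKO, and 24.6% higher and 27.3% lower in H460, and the list counts that follow stand beside these shares and the 15.1% called lower in RKO. RHBDF1, which encodes the iRhom1 partner of ADAM17, rose in RKO by 1.42 ± 0.19 (adjusted p = 0.000397), in H460 by 0.97 ± 0.09 (adjusted p = 1.05e-06) and was 0.02 ± 0.20 in A549. Its relative RHBDF2 rose in RKO (0.60) but fell in H460 (-0.87), and the metalloprotease gene ADAM12 rose in H460 (1.71 ± 0.22). Among 24 signal transducers, 3 were higher and 1 lower in RKO, 0 in A549, and 7 higher and 1 lower in H460, so that the share called higher was near that of all genes in both RKO and H460. The docking protein gene GAB1 rose in RKO (0.75) and H460 (1.31), GAB2 in RKO (1.12), and MAP2K1, which encodes the kinase MEK1, in H460 (1.22). The list medians were 0.03, 0.00 and 0.46 in RKO, A549 and H460, close to the all-gene medians except in H460.

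Of 12 tested negative regulators other than ERRFI1, 1 was higher and 1 lower in RKO, 0 were called in A549, and 5 were higher and 2 lower in H460, where 24.6% and 27.3% of all genes were. CBLB, a ubiquitin ligase that targets receptors for degradation, rose in RKO (0.98 ± 0.25) and H460 (0.88 ± 0.10). LRIG3 fell in RKO (-0.74) and H460 (-1.07), and LRIG1, a transmembrane protein that lowers receptor levels, fell in H460 (-1.47 ± 0.16). Transcripts that rise with ERK activity were called higher in 0 of 9 cases in RKO and 6 of 10 in H460, and lower in 2 and 1, beside 18.8% and 24.6% of all genes called higher and 15.1% and 27.3% lower. In H460 SPRY2, a feedback inhibitor of the pathway, rose (1.498 ± 0.11) and so did EPHA4 (1.47 ± 0.09), while the cyclin gene CCND1 fell (-2.09 ± 0.10). CCND1 also fell in RKO (-1.02 ± 0.15) and was -0.47 ± 0.18 in A549 (adjusted p = 0.242). In A549, 0 of 10 ERK output genes were called, beside 2.22% of all genes called higher and 0.456% lower. The median of the ERK output list was 0.91 in H460, against -0.04 for all genes there, and 0.08 in RKO. In A549 it was -0.34, against -0.01 for all genes.

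The genes with the level pattern most like each member were found by Pearson's r of log2 CPM over the 12 libraries among 15595 genes. These libraries come from only 3 lines, and the libraries of a line share its other differences, so the values are a description. For ERRFI1 the nearest were IL1RAP (0.983) and BHLHE40 (0.979), and for TGFA, MAP3K9 (0.977) and OPTN (0.969). EGFR was followed by CLIC3 (0.988) and CRTAC1 (0.985), ERBB2 by DPP3 (0.992) and LIMD2 (0.987), and ERBB3 by LRRC1 (0.994) and UBXN2B (0.993). RBP4 was among the nearest 2 of both EREG (0.991) and AREG (0.986), AREG was also followed by ITGB2-AS1 (0.986), and HBEGF was nearest to GFM2 (0.983) and RGL1 (0.981).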

How the data were processed

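Poly(A)+ RNA of 12 cultures was sequenced from strand-specific libraries. The submitters' processing notes name bcl2fastq, FastQC 0.11.5, TopHat2 2.0.13, Bowtie2 2.2.3.0, SAMtools 1.3.1, Picard 1.129 and HTSeq 0.6.1, and the genome build GRCh37 (hg19). The authors aligned the reads, removed alignments of low mapping quality and deposited whole-number counts per gene and library, from 27350424 to 41757584 in sum. The authors also deposited RPKM values, in which each count is divided by the length of the gene and the depth of that library. All sample columns were used (0 left out).

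Counts were tested with edgeR 4.0.16 in R 4.3.3 (TMM, quasi-likelihood F test, Benjamini-Hochberg) for genes that passed 0.5 CPM in 2 or more fitted libraries. Hypoxia effects were fitted line by line, on 4 libraries each, and differences between lines in a joint fit of all 12. The study itself tested with DESeq2. Levels are TMM-scaled CPM with factors set over all 12 libraries, and n is 2 in every group. Over all tested genes the standard error of the log2 change had a median of 0.184 (RKO), 0.223 (A549) and 0.114 (H460). Replicate pairs differed by more than counting error (chi-square per degree of freedom from 10.1 to 75.9), so none was counted as 1 sample.

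The scripts were tested on simulated data. Alternatives were DESeq2 1.42.0, other scaling, no filter, limma 3.58.1 on log2(RPKM + 1) and log2(RPKM + 0.1), a replicate block, a joint fit, no fold minimum and each library left out in turn. The 8 genes, the pathway and marker lists and the tests were chosen with earlier results of these data known. Named beyond the 8 genes were all other ligands and ERBB4, from each other pathway list the 3 called genes with the largest change in any line, and per member the 2 genes with the highest correlation, of which 1 is not reported here. Promoter windows are from RefSeq and were not joined to GRCh37 positions. Positions of genes are those of the deposited table, given 1-based.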

Additional observations from a re-analysis of the deposited data

Results flagged for a closer look

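For 9 comparisons of a gene between 2 lines, the effect of hypoxia itself differed in the joint edgeR fit (interaction test, Benjamini-Hochberg adjusted p under 0.1), which is why they are listed. All values are log2 differences of the hypoxia effect, the first line minus the second. TGFA differed in all 3 pairs of lines, by 1.60 between RKO and A549 (adjusted p = 0.00465), -0.84 between RKO and H460 (adjusted p = 0.0462) and -2.45 between A549 and H460 (adjusted p = 0.000127). ERBB2 differed by 0.82 between RKO and H460 (adjusted p = 0.00983) and by 0.89 between A549 and H460 (adjusted p = 0.00689). HBEGF differed by 1.65 between RKO and H460 (adjusted p = 0.00457) and by 1.19 between A549 and H460 (adjusted p = 0.0299). ERBB3 differed by 1.64 between RKO and H460 (adjusted p = 0.00701). EREG had the widest gap, -3.22 between A549 and H460 (adjusted p = 0.000200), where both A549 hypoxia libraries were below and both H460 hypoxia libraries above their normoxia libraries. By pair, 1 (RKO-A549), 4 (RKO-H460) and 4 (A549-H460) of the 8 genes passed this interaction test. Across the 15595 genes fitted, the passing shares were 14.6%, 37.6% and 36% in that order. Groups of 2 libraries were too small to look for single outlying libraries.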

How the results depend on the processing

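In H460 the 7 tested genes kept their direction under every alternative, and only ERBB3 lost its call, with DESeq2 (-0.89) and limma on log2(RPKM + 1) (-0.20). TGFA and ERRFI1 in RKO stayed called throughout. Results in A549 depended most on the fit, and the cause was not tested. The hypoxia markers differed there between the hypoxia libraries. Genes called higher in A549 numbered 316 and became 608 with DESeq2, 151 with library size only, 587 without the filter, 106 and 131 with limma on log2(RPKM + 1) and log2(RPKM + 0.1), 957 in the joint fit and 169 to 1083 with 1 library left out. Genes called lower there numbered 65 and became 263, 41, 213, 38 (log2(RPKM + 1)), 440 and 68 to 752 under the same settings. Of the 8 members, 0 were called in A549, against 1 higher and 2 lower with DESeq2, 2 and 2 without the filter, 2 and 2 in the joint fit, and 0 to 2 in each direction with 1 library left out. In RKO the members called higher ranged from 2 to 5 with 1 library left out, and genes called lower went from 1930 to 2938 with no fold minimum. In H460, genes called higher went from 3467 to 2075 with library size only, 1603 and 2015 with limma on log2(RPKM + 1) and log2(RPKM + 0.1) and 5345 with no fold minimum, and genes called lower from 3837 to 5756 with library size only. Library size as the only scaling moved the median of all H460 effects by -0.35.

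Between RKO and A549 the members that differed went from 1 to 3 with library size only, 4 without the filter, 5 and 4 with limma on log2(RPKM + 1) and log2(RPKM + 0.1) and 1 to 3 with 1 library left out, and all genes from 2270 to a range of 1047 to 2795 with 1 library left out. All genes that differed between RKO and A549 numbered 2386 with library size only, 2852 without the filter, and 2925 and 2731 with the 2 limma settings. Between RKO and H460 the members that differed went from 4 to 7 without the filter, and all genes from 5857 to 5931. Between A549 and H460, all genes that differed went from 5607 to between 3553 and 5798 with 1 library left out. The TGFA difference between RKO and H460 lost its call with library size only (-0.45), with log2(RPKM + 0.1) (-0.36) and without any of 4 single libraries (-1.29 to -0.49 over all libraries left out in turn), and turned to 0.18 with log2(RPKM + 1).

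Uncalled effects that changed sign were those of ERBB2 in RKO (0.064 with library size only, 0.071 and 0.074 with log2(RPKM + 1) and log2(RPKM + 0.1), 0.041 in the joint fit, -0.20 to 0.19 with 1 library left out) and its RKO minus A549 difference (0.053, 0.060 and 0.063 with library size only and the RPKM settings, -0.26 to 0.14 with 1 left out). With 1 library left out, so did HBEGF (-0.10 to 0.63) and ERBB3 (-0.40 to 0.34) in A549 and the RKO minus A549 difference of EGFR (-0.44 to 0.077). Fold changes of AREG that involve RKO are not given for the alternatives, because RKO is at the floor. The counts of members that differed still took AREG in, and between RKO and A549 the limma counts include it. EREG, with 5 and 9 reads in RKO normoxia, is in those limma counts and in the counts without the filter for both pairs with RKO.

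The labels do not say whether libraries with the same number were handled together. Deviations of libraries with the same number correlated at 0.340 in RKO, 0.344 in A549 and 0.113 in H460, with 2 pairs per line. With the replicate block, genes called in A549 were 1189 higher and 723 lower, with 2 members higher (EGFR and ERRFI1) and 2 lower (AREG and EREG). With the same block 4198 genes and 3 members (TGFA, ERBB3 at 0.75 and ERRFI1 at 1.95) differed between RKO and A549. Between A549 and H460, 7 members and 7197 genes differed, against 4 members and 5607 genes without the block. EGFR and ERRFI1 then differed between RKO and H460 (-0.57 and 0.73) and between A549 and H460 (-0.39 and -1.22). Without the filter ERRFI1 differed in the same pairs (0.60 and -1.18) and EGFR in the first (-0.56). Between RKO and A549, ERRFI1 (1.78) and ERBB3 (0.81) also differed without the filter.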
